A study of Mus musculus with 3 samples.

Results

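The Notch receptors, ligands and effectors described here are 10 genes chosen by symbol. They are the receptor genes Notch1, Notch2, Notch3 and Notch4, the ligand genes Jag1, Jag2, Dll1 and Dll4, and the effector genes Hes1 and Rbpj. They are 10 of 23282 gene entries. All 10 had reads, but only 5 had the 30 reads over all libraries that a test required. The libraries came from bone marrow of wild type C57BL/6 males, 6 weeks old by the labels, that were given sterile water by oral gavage for 28 days, with the marrow taken on day 29. The material is labelled as marrow cells after lysis of red blood cells, with no sort or gate named, although the title of the series names haematopoietic stem cells. The series sets this vehicle against the herbal drug Asari Radix et Rhizoma, whose samples were not analysed here. The values below are therefore levels in 3 vehicle libraries and the spread between them, and none compares treatments. Nothing in the labels ties each library to its own mouse, so p-values measure only the spread between these samples, which may be technical.

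Notch signalling passes between touching cells. A ligand of the Jagged or Delta-like family on one cell pulls on a Notch receptor of its neighbour, ADAM proteases and then the γ-secretase complex cut the receptor, and its freed intracellular part enters the nucleus and joins the DNA-binding protein RBPJ to switch on genes such as Hes1. In blood formation the pathway is best known for directing progenitors to the T cell fate through Notch1 and mature B cells to the marginal zone fate through Notch2.

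Notch1, Notch2 and Rbpj were the most abundant members and each was highest in replicate 1, so the 250 bases before their RefSeq transcription starts are printed, together with those of Hes5, a textbook Notch target. RBPJ is known to bind the core TGGGAA. Capitals mark matches to TGGGAA or, on the other strand, to TTCCCA, and all are written 5′ to 3′ on the strand of the gene. The windows are from RefSeq on GRCm38.p6, at chr2:26503823-26504072 (minus strand) for Notch1, chr3:98013288-98013537 (plus strand) for Notch2, chr5:53590096-53590345 (plus strand) for the first of the 2 starts of Rbpj, and chr4:154960673-154960922 (plus strand) for Hes5.
Notch1: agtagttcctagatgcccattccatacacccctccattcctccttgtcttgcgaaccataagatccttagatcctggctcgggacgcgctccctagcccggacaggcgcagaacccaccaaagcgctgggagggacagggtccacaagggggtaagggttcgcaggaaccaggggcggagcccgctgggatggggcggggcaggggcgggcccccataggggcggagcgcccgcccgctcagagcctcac
Notch2: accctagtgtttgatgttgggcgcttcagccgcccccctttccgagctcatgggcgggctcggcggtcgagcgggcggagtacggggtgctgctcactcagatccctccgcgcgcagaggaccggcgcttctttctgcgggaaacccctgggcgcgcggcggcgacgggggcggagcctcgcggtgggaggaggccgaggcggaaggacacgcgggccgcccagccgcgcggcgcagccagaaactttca
Rbpj: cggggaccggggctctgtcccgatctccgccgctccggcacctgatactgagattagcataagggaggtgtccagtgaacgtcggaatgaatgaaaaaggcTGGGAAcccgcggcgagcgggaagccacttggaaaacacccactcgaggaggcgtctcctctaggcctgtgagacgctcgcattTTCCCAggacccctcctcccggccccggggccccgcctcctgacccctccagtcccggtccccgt
Hes5: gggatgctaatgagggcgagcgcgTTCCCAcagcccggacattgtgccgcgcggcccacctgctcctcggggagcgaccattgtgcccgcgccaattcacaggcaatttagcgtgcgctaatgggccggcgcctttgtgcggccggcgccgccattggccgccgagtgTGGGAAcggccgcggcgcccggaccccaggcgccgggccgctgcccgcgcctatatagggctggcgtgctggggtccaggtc
The Notch1 and Notch2 windows held no match. The printed Notch1 and Rbpj windows lie inside the GENCODE spans of these genes (26457903 to 26516663 and 53466152 to 53657362). They thus precede a RefSeq start and not the outer start of the annotated span. The Rbpj window held TGGGAA and TTCCCA, whose first bases lay 149 and 65 bases before the start, and the Hes5 window held TTCCCA and TGGGAA at 226 and 82 bases. RefSeq windows were matched for 9 of the 10 members, in 11 windows, and 2 of these, both of Rbpj and overlapping, held a match (18.2%). Among all 32851 windows of the same length, 21.6% held a match and 2.77% held 2 or more. Of 70 windows of other genes of the pathway, listed below, 25.7% held a match. Among genes listed as further Notch targets, the windows of Ptcra and Cr2 held a match and those of Nrarp, Dtx1 and Il2ra held none. Hes1 had no window in the table. A match is a description of these letters, and none of the libraries measures binding.

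Levels are given as CPM, the reads of a gene for every 1000000 reads recovered in that library. The kit starts from the 3′ end and yields roughly 1 fragment for each transcript, so CPM of different genes were compared without division by transcript length. The libraries held 8104828 to 9168435 reads, so a gene with 0 reads could still stand at 0.327 to 0.370 CPM (3 counts). Intervals and floors cover counting error only. Of 62 marker genes of 9 marrow cell types, 60 had reads, and Cspg4 (a pericyte surface proteoglycan) and Trat1 (a T cell adaptor) had 0 in every library. Neutrophil markers summed to 85388, 66168 and 87889 CPM in replicates 1, 2 and 3. The sum of erythroid markers remained high after lysis, at 48775, 72451 and 74094 CPM, and was thus lowest in replicate 1. Nearly all of it was the globin gene Hba-a1, at 47618, 71024 and 72724 CPM. Of the 6 erythroid markers 5 were lowest in replicate 1 and 1 in replicate 3. The median tested gene stood 0.14 log2 units higher in replicate 1 than in the other libraries on library totals, and 0.01 higher with trimmed-mean (TMM) scaling. The calls of the members are therefore given on both scales, and so is the count of called genes of a group where one is given. The fold rule, read minimum, chi-square test and left-out libraries used library totals only.

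**Figure D1:**
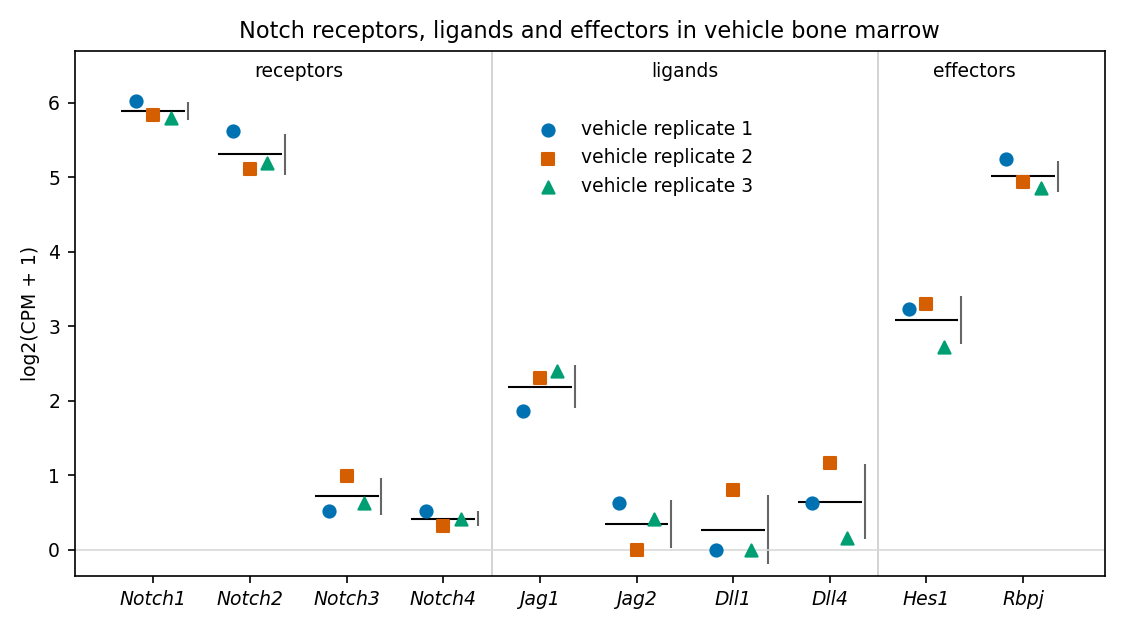
Levels of the 10 members as log2(CPM + 1) in vehicle replicates 1 to 3 (points), with the mean of the libraries (black line) and its SD (grey bar, n = 3), grouped by role. Notch1, Notch2 and Rbpj sit near the top in all 3 libraries, Hes1 and Jag1 lie below them, and Notch3, Notch4, Jag2, Dll1 and Dll4 lie at the low end.

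Notch1 and Notch2 supplied almost all receptor reads, and Notch3 and Notch4 were at the edge of detection. Notch1, the receptor that T cell commitment depends on (GRCm38 chromosome 2, 26457903 to 26516663, minus strand), had 590, 455 and 499 reads in replicates 1, 2 and 3. These are 64.4, 56.1 and 54.6 CPM, with a mean of 58.4 ± 5.24 CPM (SD, n = 3), above 79.9% of the 11833 tested genes. Replicate 1 was highest, and the other libraries lay close together. The deposited log2 values of Notch1 were 5.87, 5.80 and 5.78. Notch2, the receptor that marginal zone B cells depend on (chromosome 3, 98013527 to 98150361, plus strand), had 442, 272 and 326 reads, or 48.2, 33.6 and 35.7 CPM, with a mean of 39.1 ± 7.92 CPM. Replicate 1 again stood above the other libraries. In the deposited log2 values Notch2 had 5.46, 5.08 and 5.18.

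Notch3, known from vascular smooth muscle and pericytes (chromosome 17, 32120820 to 32166852), had 4, 8 and 5 reads in replicates 1, 2 and 3, or 0.436, 0.987 and 0.547 CPM. Notch4, known from endothelium (chromosome 17, 34564268 to 34588503), had 4, 2 and 3 reads, or 0.436, 0.247 and 0.328 CPM. For both genes the exact 95% Clopper-Pearson intervals of all libraries overlapped, from 0.119 to 1.12 CPM in replicate 1 and 0.426 to 1.94 CPM in replicate 2 for Notch3. Their coefficients of variation (CV) were 44.3% and 28.2%, where counting alone would give 42.1% and 57.8%. Differences between libraries in these 2 receptors were thus not detectable at this depth.

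The make-up of the receptor pool does not depend on how libraries are scaled. Notch1 made up 56.7%, 61.7% and 59.9% of receptor reads in replicates 1, 2 and 3, a mean of 59.5% ± 2.53 (SD, n = 3). Notch2 made up 42.5%, 36.9% and 39.1%, a mean of 39.5% ± 2.82. The intervals of the Notch1 share, 53.7% to 59.8% in replicate 1 and 58.1% to 65.3% in replicate 2, overlapped narrowly. Notch3 and Notch4 made up 0.651% and 0.345% of the 2610 receptor reads of all libraries. Within a library, Notch1 exceeded Notch2 1.33-fold, 1.67-fold and 1.53-fold, a log2 ratio of 0.59 ± 0.16 (SD, n = 3), above 0 in 3 of 3 libraries. An exact two-sided permutation of signs gave p = 0.25, the lowest value possible with 3 libraries.

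The ligand genes were low, and Jag1 held most of their reads. Jag1, encoding Jagged1 (chromosome 2, 137081456 to 137116644), had 24, 32 and 39 reads in replicates 1, 2 and 3, or 2.62, 3.95 and 4.27 CPM, with a mean of 3.61 ± 0.875 CPM (SD, n = 3). It was lowest in replicate 1, where Notch1 and Notch2 were highest, but its intervals, from 1.68 to 3.89 CPM in replicate 1 and 3.04 to 5.83 CPM in replicate 3, overlapped. Jag2, encoding Jagged2 (chromosome 12, 112907819 to 112929776), had 5, 0 and 3 reads. Dll4, the Delta-like ligand known from endothelium (chromosome 2, 119325784 to 119335962), had 5, 10 and 1 reads, or 0.545, 1.23 and 0.109 CPM. Dll1, a Delta-like ligand that marginal zone B cells depend on (chromosome 17, 15367354 to 15376872), had 0, 6 and 0 reads, so all of its reads came from replicate 2, where it reached 0.740 CPM. The 0 of Dll1 in replicates 1 and 3 allows up to 0.327 and 0.328 CPM.

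Jag1 made up 70.6%, 66.7% and 90.7% of ligand reads in replicates 1, 2 and 3, and 76.0% of the 125 ligand reads of all libraries (exact 95% Clopper-Pearson interval 67.5% to 83.2%). Of these pooled reads Dll4 had 12.8%, Jag2 6.40% and Dll1 4.8%, but the shares differed by library, at 14.7%, 20.8% and 2.33% for Dll4 and 14.7%, 0% and 6.98% for Jag2. Dll4 thus stood above Jag2 in replicate 2 alone. The 4 receptors together had 1040, 737 and 833 reads and the 4 ligands 34, 48 and 43 reads. Receptor reads thus exceeded ligand reads 30.6-fold, 15.4-fold and 19.4-fold, a log2 ratio of 4.38 ± 0.51 (SD, n = 3), above 0 in 3 of 3 libraries with p = 0.25, again the lowest possible (exact permutation of signs, two-sided). In these bulk libraries fewer cells that carry a ligand and less ligand RNA per cell cannot be told apart. Endothelial markers, among them Pecam1 and Eng, summed to 60.5, 60.1 and 59.9 CPM in replicates 1, 2 and 3. Of 7 tested markers 2 differed between libraries and 3 with TMM scaling, where 56.5% and 51.8% of all tested genes did (exact binomial test at an adjusted 0.05). The 2 were Kdr, at 3.71, 4.94 and 1.97 CPM, and Esam, at 4.14, 3.58 and 1.53 CPM, both lowest in replicate 3. Pecam1 and Eng, which held most of the sum, were highest there but did not pass the test on library totals. With TMM scaling Pecam1 passed (adjusted p = 0.00665, exact binomial test) and Eng did not (adjusted p = 0.0803). The even sum thus hides markers whose highest library was not the same. Markers of stroma and pericytes, among them Cxcl12 and Col1a2, summed to 291, 251 and 194 CPM. Of 6 tested markers 4 differed on either scale, beside the same 56.5% and 51.8% of all tested genes. Of the other listed genes Cspg4 was at 0, but Pdgfrb had 2.84, 3.45 and 1.75 CPM and Acta2 10.8, 11.6 and 12.1 CPM in replicates 1, 2 and 3. The part of either cell type in the ligand levels was not tested.

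**Figure D2:**
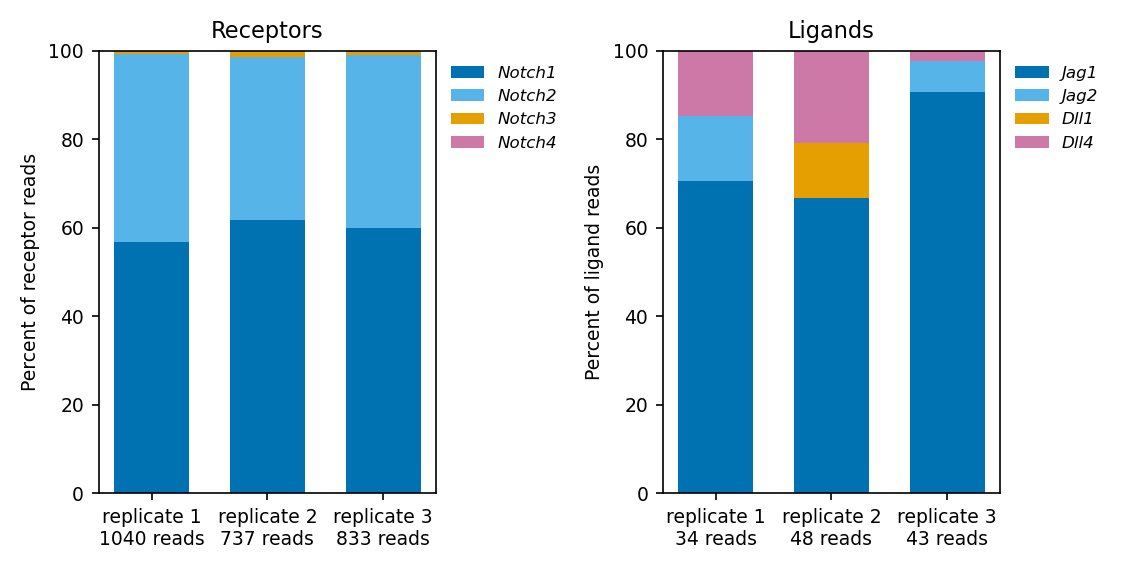
Composition of receptor reads (left) and ligand reads (right) in vehicle replicates 1 to 3, as percent of the reads of the 4 genes of each class, with the number of reads under each bar. Notch1 and Notch2 fill nearly the whole receptor bar in every library, and Jag1 fills 66.7% to 90.7% of the ligand bar, which rests on 34 to 48 reads.

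Both effectors were measured well enough to be tested, and Rbpj was the higher. Rbpj, the DNA-binding partner of the cleaved receptor (chromosome 5, 53466152 to 53657362, plus strand), had 340, 240 and 255 reads in replicates 1, 2 and 3. These are 37.1, 29.6 and 27.9 CPM, with a mean of 31.5 ± 4.88 CPM (SD, n = 3). Replicate 1 was highest, as for Notch1 and Notch2. Hes1, a transcriptional repressor that Notch switches on in many tissues (chromosome 16, 30064384 to 30067796, plus strand), had 77, 72 and 51 reads, or 8.40, 8.88 and 5.58 CPM, with a mean of 7.62 ± 1.78 CPM. Its low library was replicate 3, and replicates 1 and 2 were close. Rbpj exceeded Hes1 4.42-fold, 3.33-fold and 5.0-fold, a log2 ratio of 2.07 ± 0.30 (SD, n = 3). Notch1 exceeded Rbpj 1.74-fold, 1.90-fold and 1.96-fold, a log2 ratio of 0.90 ± 0.09, the steadiest of these ratios.

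By mean level the members stood in the order Notch1, Notch2, Rbpj, Hes1, Jag1, Notch3, Dll4, Notch4, Jag2 and Dll1. The ranges of the 3 libraries did not overlap between Notch1 and Notch2, Rbpj and Hes1, Hes1 and Jag1, or Jag1 and Notch3. Notch2 and Rbpj overlapped in range, although Notch2 was the higher in 3 of 3 libraries, by 7.61 ± 3.59 CPM (SD, n = 3). Notch3, Dll4, Notch4, Jag2 and Dll1, each between 6 and 17 reads in all, overlapped with their neighbours and have no order beyond their spread.

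Of the 5 members with at least 30 reads, 4 differed between libraries on library totals, against 56.5% of all 11833 tested genes (each library set against the other 2 by an exact binomial test, two-sided, with Benjamini-Hochberg adjustment over all tested genes). The adjusted p-values were 4.16e-06 for Notch2, 0.00271 for Rbpj, 0.0252 for Notch1, 0.0400 for Hes1 and 0.221 for Jag1. The highest library exceeded the lowest 1.44-fold for Notch2, 1.33-fold for Rbpj, 1.18-fold for Notch1, 1.59-fold for Hes1 and 1.63-fold for Jag1. The 5 tested members had a median CV of 20.2%, and all tested genes one of 17.1%. Called and highest in replicate 1 were Notch1, Notch2 and Rbpj, 3 of 5 members, where 31.2% of tested genes were called with replicate 1 highest. Hes1 was called and highest in replicate 2, where 14.8% of tested genes were, and no member was called and highest in replicate 3, where 10.5% were.

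With TMM scaling only Notch2 differed (adjusted p = 0.00275, exact binomial test), against 51.8% of all tested genes, and 16.1% were called with replicate 1 highest on that scale. Its levels were then 45.1, 34.2 and 37.4 CPM in replicates 1, 2 and 3. Notch1 came to 60.3, 57.2 and 57.2 CPM (adjusted p = 1), Rbpj to 34.7, 30.2 and 29.2 CPM (adjusted p = 0.127), Hes1 to 7.86, 9.06 and 5.85 CPM (adjusted p = 0.118) and Jag1 to 2.45, 4.03 and 4.47 CPM (adjusted p = 0.0966, all exact binomial tests). Each gene kept its highest library on both scales. When replicate 1 was left out, on library totals, Notch1, Notch2 and Rbpj lost their calls, with adjusted p = 0.788, 0.608 and 0.669 by the exact test, and 1 of 5 members (Hes1) remained, against 34.8% of tested genes. Leaving out replicate 2 kept 3 of 5 members, against 39.0% of tested genes, and lost Hes1 (adjusted p = 0.0643, exact test). Leaving out replicate 3 kept 2 of 5, against 38.5%, and lost Notch1 and Hes1 (adjusted p = 0.0722 and 0.832, exact test).

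Other settings gave counts to set beside their own background. Library totals without the 20 most abundant genes left 1 of 5 members (Notch2), against 52.2% of tested genes. A chi-square test called 4 of 5, against 58.9%. A minimum of 100 reads left 4 members to test and called all 4, against 60.6%, and a minimum of 1 read called 5 of 10, with Dll1 added, against 45.8%.

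**Figure D3:**
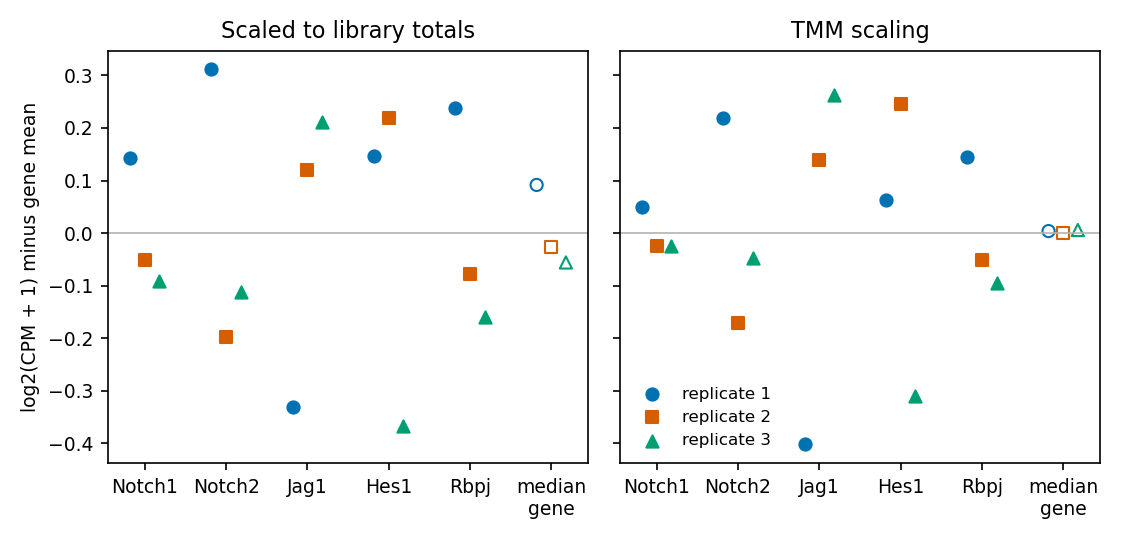
Deviation of each library from the gene's own mean, as log2(CPM + 1), for the 5 tested members (filled) and for the median of all tested genes (open), on library totals (left) and with TMM scaling (right). On library totals replicate 1 stands high for Notch1, Notch2, Rbpj and also for the median gene, and with TMM scaling the median gene lies near 0 in every library while Notch2 keeps the widest gap of those 3.

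The other genes of the pathway were read from a list of 67 genes in 10 roles, of which 62 had reads and 55 had at least 30. Of the 55, 36 differed between libraries, beside the 56.5% of all tested genes given above, and 33 with TMM scaling, beside 51.8%. With at least 1.5-fold between highest and lowest library also required, 12 of the 55 and 1 of the 5 members (Hes1) were called, against 28.2% of all tested genes. Their median CV was 15.1%.

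The proteases that release the receptor were all present. Adam10, the protease that cuts ligand-bound Notch, had 123, 143 and 102 CPM in replicates 1, 2 and 3 and exceeded Notch1 1.91-fold, 2.55-fold and 1.86-fold. Adam17, a related protease, had 80.7, 80.8 and 65.1 CPM, and Furin, which processes the receptor on its way to the surface, 67.4, 61.2 and 64.4 CPM. Adam10 and Adam17 differed between libraries, both lowest in replicate 3, and Furin did not pass the test (adjusted p = 0.601, exact binomial test). All 7 γ-secretase genes were tested and 3 differed on each scale, where 56.5% of all tested genes did, or 51.8% with TMM scaling. Aph1a and Aph1b were called on both scales, and the other gene called was a different one on each. Aph1a, encoding the scaffold subunit of the complex, had 42.9, 29.5 and 33.5 CPM in replicates 1, 2 and 3, highest in replicate 1 (adjusted p = 8.17e-05, and 0.0151 with TMM scaling, exact binomial test). Its paralogue Aph1b was lowest in replicate 1, at 18.1, 25.4 and 25.5 CPM (adjusted p = 0.00133, and 1.64e-05 with TMM scaling, exact binomial test), and may share reads with the similar Aph1c.

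Enzymes that put sugars on the receptor were all detected. Of the 5, 2 differed, or 1 with TMM scaling, where 56.5% and 51.8% of all tested genes did. Lfng, encoding the lunatic fringe glycosyltransferase that tunes which ligands a receptor answers to, had 37.5, 21.6 and 32.8 CPM in replicates 1, 2 and 3. It was lowest in replicate 2 and passed the exact binomial test (adjusted p = 8.53e-08). Pofut1, which adds O-fucose to the receptor, had 22.5, 19.0 and 17.8 CPM. Of the fringe genes, Mfng at 6.96 ± 0.771 CPM and Rfng at 5.48 ± 1.38 CPM stood below Lfng at 30.6 ± 8.19 CPM (SD, n = 3), and the range of Lfng did not overlap theirs. Ubiquitin ligases that act on ligands ranged widely. Mib2 had 45.5, 25.9 and 31.1 CPM and Neurl1b 37.6, 27.9 and 31.8 CPM, both highest in replicate 1, while the 4 ligands summed to 3.71, 5.92 and 4.71 CPM. Neurl1b passed the exact binomial test on library totals only (adjusted p = 0.00902, and 0.0755 with TMM scaling). Mib1 at 3.96 ± 1.55 CPM and Neurl1a at 1.06 ± 0.874 CPM (SD, n = 3) had means below that of the ligand sum, 4.78 ± 1.11 CPM. All 4 tested ligases differed on library totals and 3 with TMM scaling, beside the same 56.5% and 51.8% of all tested genes.

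Genes of receptor turnover held 251 ± 21.8 CPM in all (SD, n = 3). Of these 9 genes 6 differed, or 7 with TMM scaling, where 56.5% and 51.8% of all tested genes did. Fbxw7, whose product marks the cleaved receptor for destruction, had 67.2, 59.2 and 56 CPM, and the endocytic kinase gene Aak1 63.2, 56.6 and 47.3 CPM in replicates 1, 2 and 3. Numb, encoding an adaptor that restrains Notch, had 16, 14.3 and 18.6 CPM.

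Partners of RBPJ had the largest sums of the 10 roles, with 13 corepressors and 8 coactivators listed. Corepressors summed to 1461 ± 46.4 CPM and coactivators to 628 ± 29.9 CPM (SD, n = 3). Per gene, the median was 60.8 CPM for corepressors and 25.6 CPM for coactivators, against 75.5 CPM for the 3 furin and ADAM proteases. Ncor1, a scaffold of repressor complexes, had 700, 655 and 662 CPM, and the histone demethylase gene Kdm5a 157, 159 and 142 CPM. Of the coactivators, the acetyltransferase gene Crebbp had 240, 234 and 200 CPM and Snw1, whose product also serves in splicing, 171, 152 and 168 CPM. Most of these products also serve other pathways. Maml1, Maml2 and Maml3, encoding the Mastermind proteins that sit on the complex of RBPJ and cleaved receptor, were lower, at 11.7 ± 2.65, 7.74 ± 1.39 and 13.1 ± 0.733 CPM. Of the 8 coactivators 5 differed, or 4 with TMM scaling, and of the 13 corepressors 9, or 8 with TMM scaling. Of all tested genes 56.5% differed, or 51.8% with TMM scaling.

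Among the HES and HEY repressors Hes6 stood far above Hes1. Hes6, known as an antagonist of Hes1 in neural cells, had 555, 326 and 360 reads, or 60.5, 40.2 and 39.4 CPM in replicates 1, 2 and 3, and exceeded Hes1 7.21-fold, 4.53-fold and 7.06-fold. It differed between libraries on library totals and with TMM scaling (adjusted p = 1.95e-11 and 7.82e-07, exact binomial test), highest in replicate 1. Hes5, whose promoter is printed above, had 7, 14 and 28 reads, or 0.763, 1.73 and 3.06 CPM, highest in replicate 3 (adjusted p = 0.00978, exact binomial test). Hes2, Hes3 and Hey2 had 0 reads in every library, which allows up to 0.114 CPM over all 26410388 reads where their reads could be counted. Hey1, Heyl and Hes7 had 4, 18 and 5 reads in all.

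Known Notch targets of lymphoid cells were mixed. Cr2, the complement receptor gene of mature B cells, had 23.9, 17.0 and 22.2 CPM, and Il2ra, the interleukin-2 receptor α-chain gene, 19.6, 20.4 and 10.4 CPM in replicates 1, 2 and 3. Il2ra was lowest in replicate 3 (adjusted p = 1e-07, exact binomial test), and so were the B cell markers as a sum, at 518, 548 and 436 CPM. The genes listed as T cell markers, among them Cd2 and Lck, summed to 57.6, 60.7 and 62.1 CPM. Of the 5 tested, 1 differed on either scale, beside the 56.5% of all tested genes. It was Cd3d, at 6.11, 8.14 and 12.8 CPM. Cd2 held most of the sum, at 41.1, 39.6 and 36.0 CPM, while Cd3e and Cd3g had means of 1.68 and 1.29 CPM. The sum is thus largely the level of Cd2 and was not tested as a measure of T cells. Dtx1, a target gene that feeds back on the receptor, had 5.34, 2.22 and 3.5 CPM. Nrarp, a target whose product limits Notch signalling, had 0.982, 1.73 and 1.64 CPM and did not pass the test (adjusted p = 0.619, exact binomial test), and Ptcra, the pre-T cell receptor α gene, had 6 reads in all. The part of B or T cells in these levels was not tested. Of the ligand-like genes Dlk2 had 2, 10 and 12 reads and Dlk1 0, 0 and 3, and Dll3 and Dner had 0 in every library.

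**Figure D4:**
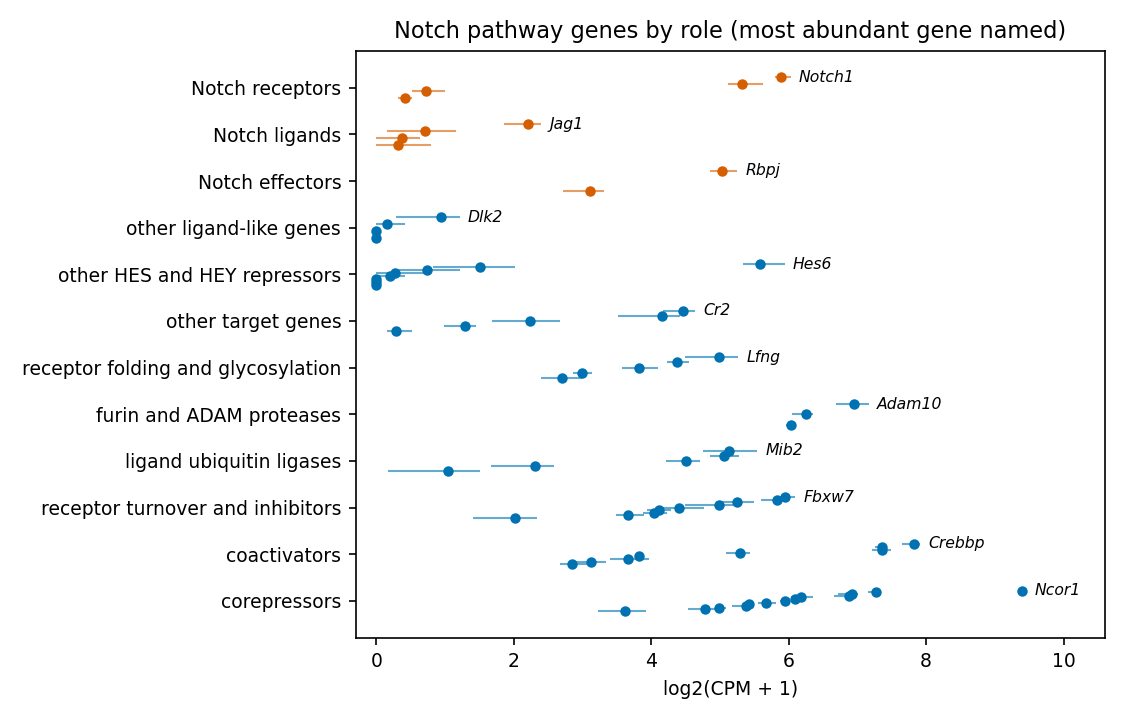
Mean level of each Notch pathway gene as log2(CPM + 1) (point) with the range of the 3 vehicle libraries (line), by role, with the 10 members in orange and genes of 9 other roles in blue (γ-secretase subunits are not drawn). Corepressors and coactivators reach furthest right, Hes6 stands apart from the other HES and HEY genes, and ligands and ligand-like genes lie at the low end.

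Neighbouring annotation limits some of these values. The 3′ end of Notch1, where such libraries place their reads, is overlapped in GENCODE by the processed transcripts 0610009E02Rik and Gm13568 of the opposite strand, and that of Notch3 by the antisense gene Gm17276. Gm14207, on the strand opposite to Dll4, overlaps its 5′ end and had 0, 2 and 2 reads in replicates 1, 2 and 3. The strand setting of the counting is not given, so reads of 0610009E02Rik, Gm13568 and Gm17276 cannot be told apart from those of Notch1 and Notch3. The annotated pseudogenes Rbpj-ps1 on chromosome 4 and Rbpj-ps3 on chromosome 6 may share reads with Rbpj. No annotated gene overlapped Hes1 or Jag1.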

How the data were processed

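RNA was measured in 3 vehicle libraries made from 500 ng of total RNA with a Lexogen QuantSeq kit, per the labels' protocols. The submitters' processing notes list Bowtie2, bedtools and mm10. What annotation, strand setting or normalization they used is not given in the sources used here. The authors deposited log2 values, whose steps show the form log2(x + 1), where x scales a gene's reads to 1000000. Undoing the log2 gave whole multiples of 1 read for 100% of entries (tolerance 1e-06), so whole reads were recovered. The library sizes the authors divided by were 1.12, 1.03 and 1.01 times these reads. The planned design had assumed counts, and the exact binomial test ran on these recovered reads.

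Genes with at least 30 reads over the 3 libraries were tested library by library, each set against the other 2, with an exact binomial test, two-sided (scipy 1.17.1, Python 3.11.15). A gene's lowest p-value, times 3 for the 3 libraries, was adjusted by Benjamini-Hochberg over all genes tested, with 0.05 as the threshold. The test sets the spread against counting noise only, and it was tested on simulated counts. Scaling factors by TMM (trimming 30% of ratios, 5% of intensities) and by the median of ratios came from Python code. Alternatives covered scaling, read minimum, test, fold rule, pseudocount and leaving out each library. Any 2 libraries differed far beyond counting noise, with a chi-square per gene of 13.1 to 20.7, so all 3 were counted. Gene positions are from GENCODE vM21 (GRCm38).

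The members, gene lists and tests were chosen with earlier results of these data known. Named were all members, the 2 most abundant genes of each list, genes with 0 reads, and the 3 genes nearest to the top receptor in level, of which the text gives a part, and 1 item of the rule is not reported here. Furin, Mfng, Rfng, Numb, Maml1, Maml2, Maml3, Hey1, Heyl, Hes7, Dtx1, Nrarp, Ptcra, Aph1b, Aph1c, Mib1, Neurl1a, Kdr, Esam, Pdgfrb, Acta2, Cd3d, Cd3e and Cd3g were named after their values were seen.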

Additional observations from a re-analysis of the deposited data

How the results depend on the processing

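The count of members that differed between libraries depended on scaling. It was 4 on library totals, 1 with TMM, 1 with median-of-ratios factors and 1 with totals taken without the 20 most abundant genes (Notch2 in each case), and 1 with a 1.5-fold rule (Hes1). Leaving out a library gave 1 to 3 members: Hes1 without replicate 1, Notch1, Notch2 and Rbpj without replicate 2, and Notch2 and Rbpj without replicate 3. With a minimum of 1 read 5 of 10 were called, Dll1 being added. Over all genes the count of 6687 went to 3341 with the 1.5-fold rule and to between 3866 and 4392 when a library was left out. Over the other pathway genes the count of 36 went to 12 with the 1.5-fold rule and to between 20 and 24 when a library was left out. The cause of these changes was not tested, but fewer libraries also leave fewer reads. For single members, 31 of 49 calls stayed on their side of the threshold under an alternative and 18 lost it. Levels of low members moved by over 1.5 times when a library was left out: without replicate 2 Dll1 fell to 0, against 0.247 CPM, and Dll4 to 0.327, against 0.630 CPM, and without replicate 1 Jag2 fell to 0.164, against 0.291 CPM. Receptor shares do not depend on scaling by construction. The median SD of the members' log2(CPM + 1) was 0.282, and 0.22 to 0.335 under the 3 alternatives tried. Depth limits the 5 members under 30 reads. No paired analysis was possible because all 3 libraries belong to 1 group.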

Other observations

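The genes nearest to Notch1 in level, by Euclidean distance of log2(CPM + 1) over the 3 libraries, were E030024N20Rik (distance 0.0243), Pou2f2, a B cell transcription factor gene (0.0341), and D19Bwg1357e (0.0351). Pou2f2 had 62.9, 55.6 and 54.5 CPM in replicates 1, 2 and 3. In all, 141 genes lay within a distance of 0.2, so likeness over 3 libraries singles out no gene.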
